A study of Homo sapiens with 6 samples.

Results

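Heat shock and mitochondrial chaperones are proteins that fold, refold and hold other proteins. A set of 10 genes of this kind, chosen by name through their transcript IDs, were followed here: HSPD1, HSPE1, HSPA9 and TRAP1 of the mitochondrion, HSPA8, HSP90AA1, HSP90AB1, HSPH1 and DNAJB1 of the cytosol, and HSF1, which encodes the transcription factor that controls many of them. Each of the 10 genes had 1 row among the 22279 rows of the count table, and all 10 passed the filter on low counts along with 11712 rows in all. The RNA-seq libraries came from LNCaP, an established human prostate cancer cell line that responds to androgen. Cells with a hairpin against RB (shRB, 3 libraries) were compared with cells carrying a control hairpin (shCON, 3 libraries), and all 6 cultures were held for 72 h in a treatment the labels name CDT, listed as a cell cycle arrest treatment and described as hormone deficient. With 1 hairpin name per group, an effect of RB loss and one of the hairpin or cell population cannot be told apart. Nothing in the labels says that replicates were grown separately, so the spread behind each p-value may be technical.

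In the mitochondrial matrix, HSP60 (HSPD1) forms a barrel and HSP10 (HSPE1) its lid, and together they fold imported proteins. Mortalin (HSPA9) pulls proteins in through the inner membrane, and TRAP1 is the HSP90 of this compartment. In the cytosol, HSP70 proteins such as HSPA8 bind unfolded stretches, J proteins such as DNAJB1 deliver clients and stimulate the ATPase, HSPH1 exchanges the nucleotide, and the HSP90 pair matures kinases and steroid receptors, the androgen receptor among them. On heat or other protein stress, HSF1 forms trimers that bind heat shock elements, which are inverted repeats of the unit GAA.

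Heat shock elements in the promoters are shown first, because they mark which of the genes carry the sequence that HSF1 recognises. RefSeq promoter windows (GRCh38.p14, 250 bases before to 50 after a gene's start) were matched by symbol for 9 of the 10 genes, with 15 windows in all; HSF1 had none. An element of 3 units was searched as GAANNTTCNNGAA or TTCNNGAANNTTC, which are each other's reverse complement, and an element of 2 units as GAANNTTC or TTCNNGAA, each its own reverse complement and each contained in a 3-unit element. An element of 3 units was found in 4 of the 9 chaperone genes, against 0.608% of 27305 genes with a window, and 6 of the 9 held at least 2 units, against 16.2% of all genes. Windows are counted per annotated start, and genes with more starts have more chances to hold a match. The stretches below are 30 bases on the gene's strand, 5′ to 3′, and capitals mark the matched element.
HSPD1 (chr2:197500061-197500090, minus strand, 4 units in a row): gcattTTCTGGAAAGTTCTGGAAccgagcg
HSPA8 (chr11:123062346-123062375, minus strand, 3 units): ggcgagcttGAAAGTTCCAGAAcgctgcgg
HSPA8 (chr11:123062171-123062200, minus strand, 3 units): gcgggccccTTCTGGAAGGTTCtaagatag
HSP90AA1 (chr14:102087112-102087141, minus strand, 3 units): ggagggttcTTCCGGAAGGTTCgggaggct
HSP90AB1 (chr6:44247769-44247798, plus strand, 3 units): gggagcaggTTCTGGAAGATTCatgggctc
HSP90AB1 (chr6:44247822-44247851, plus strand, 3 units): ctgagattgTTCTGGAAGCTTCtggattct
DNAJB1 (chr19:14518456-14518485, minus strand, 2 units): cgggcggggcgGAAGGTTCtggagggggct
DNAJB1 (chr19:14518426-14518455, minus strand, 2 units): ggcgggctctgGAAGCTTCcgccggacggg
HSPA9 (chr5:138575387-138575416, minus strand, 2 units): tggttggaggtTTCCAGAAgcgctgccgcc

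The 4-unit element of HSPD1 lay 38 to 21 bases before the start of the transcript that names its row. The first element of HSPA8 lay 31 to 19 bases before its row's start, and those of DNAJB1 began 54 and 24 bases before theirs. In HSP90AA1 the 3-unit element began 59 bases after the row's start, and an element of 2 units, not shown, began 79 bases after it. The element of HSPA9 spanned its start, and DNAJB1 had a further element of 2 units, not shown, 484 bases after its own. The second element of HSPA8 began 144 bases after the row's start. In HSP90AB1 the pair of elements stood in the window of a later start, 691 and 744 bases into the gene as counted from the row's start. No match was found in the windows of HSPE1, TRAP1 and HSPH1, but those of HSPE1 and HSPH1 do not hold the start of their row's transcript, which lies 385 bases before the RefSeq start in HSPE1 and 461 bases after it in HSPH1. HSPD1 and HSPE1 start head to head, and the 4-unit element shown for HSPD1 lies 74 to 91 bases after the start of the HSPE1 row. A match is a run of letters only, and none of these windows was tested for binding.

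RB1 mRNA stood at 5.02 ± 1.06 CPM in shRB and 54.7 ± 1.93 CPM in shCON (SD, n = 3 each), so the libraries carry the knockdown their labels name. CPM here is the count relative to the TMM-scaled library total. Library totals were 9780579 to 10898768 counts in shRB and 6115310 to 20091488 counts in shCON, and the 10 chaperone genes had between 910 and 72857 counts in any library. All 9 prostate luminal markers were measured, and their CPM summed to 4620 to 4950 in shRB and 4940 to 5220 in shCON. Markers of other cells were low: the endothelial genes PECAM1, CDH5 and KDR, the leukocyte genes PTPRC and CD3E, KRT5 of basal cells and COL1A2 of fibroblasts had no counts, and the summed CPM was 5.22 to 5.41 in shRB and 5.72 to 7.41 in shCON for 5 leukocyte genes and 14.9 to 18.5 in shRB and 19.4 to 22.3 in shCON for 4 fibroblast and muscle genes. The basal genes KRT5, KRT14 and TP63 summed to at most 0.106 CPM in shRB and 0.638 CPM in shCON. The basal, leukocyte and fibroblast sums were lower in every shRB library than in any shCON library, and their part in the results was not tested. Most of the leukocyte sum was CD68 (mean 5.08 CPM in shRB and 5.92 CPM in shCON). Most of the fibroblast and muscle sum was COL1A1 (13.5 CPM in shRB and 17.5 CPM in shCON), beside MYH11 at 3.09 CPM in shRB and 3.06 CPM in shCON. Neither CD68 nor COL1A1 differed at an adjusted p under 0.05 (edgeR, 0.25 and 0.055). In libraries of a single cell line, these sums were not read as amounts of other cell types.

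One library needs naming before the chaperone values: shRB 2 had a score of −21.8 on principal component 2 (15.8% of variance), and shRB 1 and shRB 3 had 11.99 and 12.4. Relative to the mean of shRB 1 and shRB 3, shRB 2 was lower by 0.54 on the log2 CPM scale for HSP90AA1 (transcript GC content 43.0%), by 0.41 for HSPH1 (39.95%), by 0.24 for HSPD1 (44.2%) and by 0.21 for HSPA9 (44.7%). The same difference was 0.29 for HSF1 (63.9%) and 0.17 for TRAP1 (58.2%), and within 0.06 of 0 for HSPA8, HSP90AB1, HSPE1 and DNAJB1. Across the 10 genes, which share the 3 libraries, this difference had a Spearman correlation of 0.95 with GC content, and across 11674 tested rows it was 0.69. Deviations from the group mean also followed GC content in control libraries. Their Spearman correlations over the same rows were 0.52 for shCON 2, −0.51 for shCON 1 and −0.09 for shCON 3, beside 0.69 for shRB 2. Leaving out shRB 2 keeps shCON 2, so that fit is not balanced for GC content between the groups. Results are therefore given with and without shRB 2, and with a correction for GC content chosen after the data were seen.

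**Figure D1:**
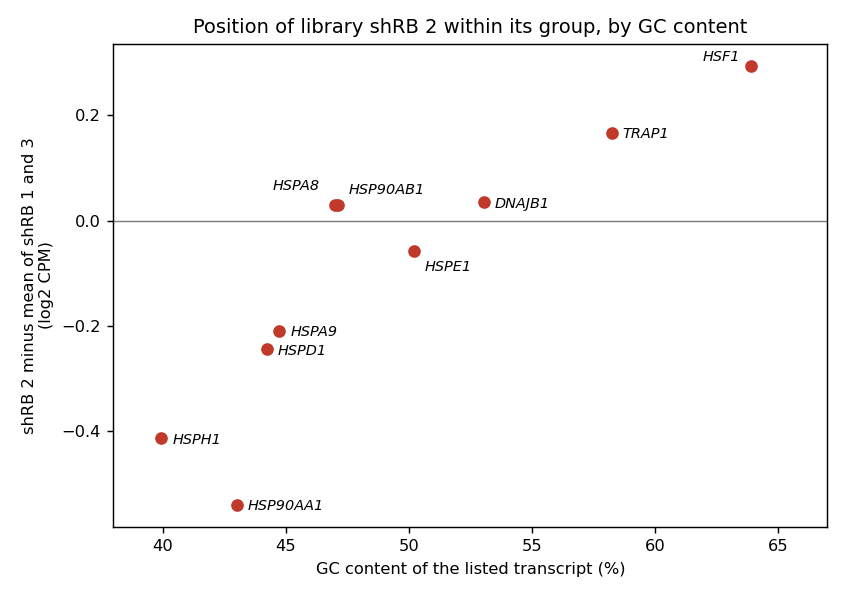
Difference between library shRB 2 and the mean of shRB 1 and shRB 3 in log2 CPM (vertical axis) against GC content of the transcript in percent (horizontal axis), 1 point per chaperone gene. HSP90AA1 and HSPH1, at 43.0% and 39.95% GC, lie lowest, and HSF1, at 63.9%, lies highest.

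The genes of the mitochondrial chaperonin were higher in mean in shRB, but only the call of HSPE1 held with any 1 library left out. Of the 10 chaperone genes, HSPE1 and HSPD1 passed as higher (edgeR quasi-likelihood test, Benjamini-Hochberg adjusted p under 0.05 over all tested rows) and 0 passed as lower. Over all rows tested, 12.8% passed as higher and 12.5% as lower (25.3% in either direction), so 2 of 10 is a share near the background. The 10 log2 fold changes ran from 0.02 to 0.32 with a median of 0.13, and all were above 0, beside a median of −0.01 and 5738 values above 0 among the 11712 rows.

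**Figure D2:**
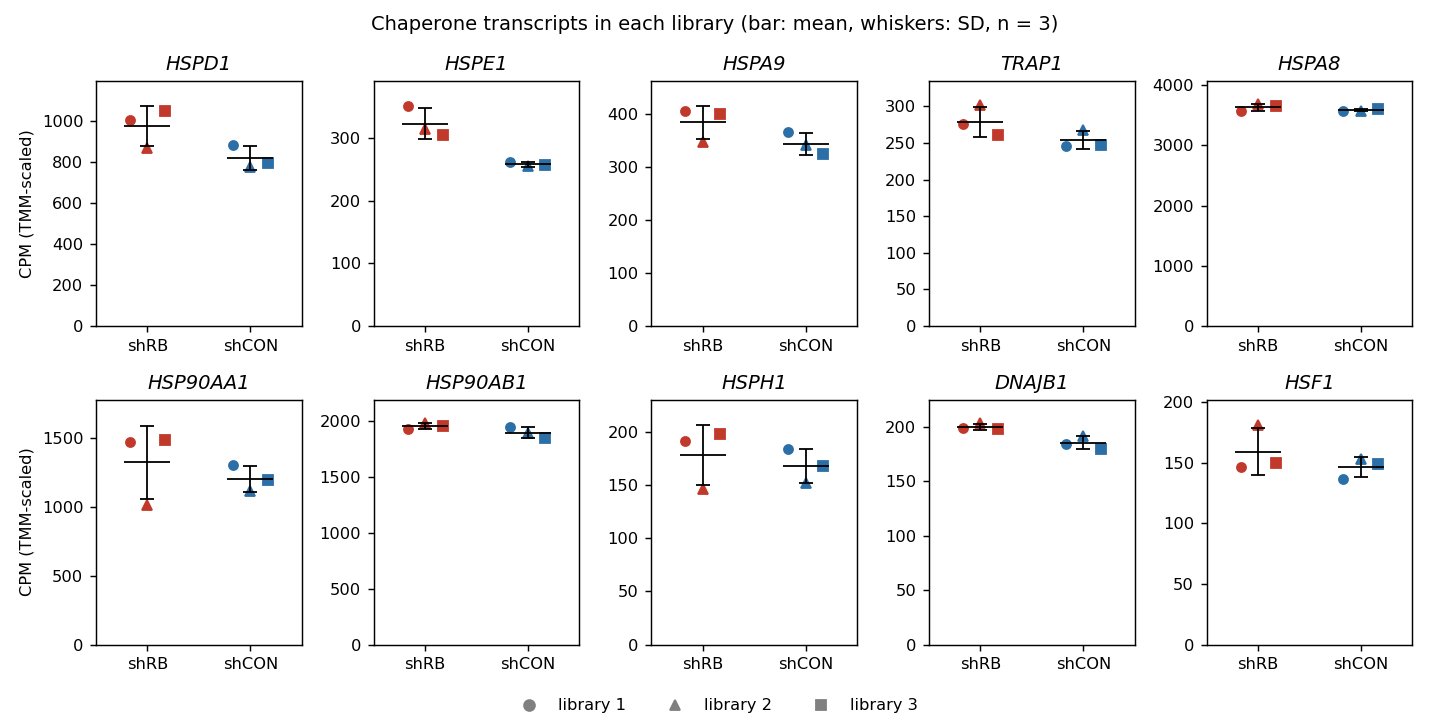
TMM-scaled CPM of each chaperone gene in the shRB and the shCON libraries (circle, triangle and square for libraries 1, 2 and 3; line and whiskers, mean and SD, n = 3), each panel with its own axis from 0. The shRB and shCON points of HSPE1 and DNAJB1 do not overlap, and the triangle of shRB 2 sits lowest of all 6 libraries for HSP90AA1 and HSPH1.

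HSPE1 (ENST00000233893, chromosome 2), the HSP10 lid, read 351, 314 and 305 CPM in shRB 1 to 3, against 262, 255 and 257 CPM in shCON 1 to 3. Every shRB library was above every shCON library, as for 21.0% of all tested rows, while every shRB library was below every shCON library in 20.2% of rows and in 0 of the 10 genes. HSPE1 rose by 0.32 ± 0.07 on the log2 scale (SE), with an edgeR adjusted p of 0.0059. It passed in all 17 alternatives that kept its own row, where it ranged from 0.26 to 0.37.

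HSPD1 (ENST00000388968, chromosome 2), the HSP60 barrel, read 1008, 869 and 1052 CPM in shRB 1 to 3, against 885, 776 and 796 CPM in shCON 1 to 3. Here shRB 2 lay below shCON 1, so the groups overlapped. HSPD1 rose by 0.25 ± 0.09 on the log2 scale (SE), with an edgeR adjusted p of 0.046. That call was lost with 1 library left out when the library was shRB 1 (log2 fold change 0.23, edgeR adjusted p = 0.13), shRB 3 (0.20, adjusted p = 0.15), shCON 1 (0.31, adjusted p = 0.051), shCON 2 (0.22, adjusted p = 0.16) or shCON 3 (0.24, adjusted p = 0.16), and without shRB 2 the change was 0.34 (adjusted p = 2.1e-05).

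HSPD1 and HSPE1 are transcribed away from each other, and the exons of their rows overlap by 54 bases on opposite strands. The labels name the TruSeq RNA Sample Prep Kit v2, which does not mark strand, so reads from shared sequence could stand in either row. Part of the HSPE1 count could therefore be HSPD1 reads, which was not tested. With both rows replaced by their sum, which does not depend on that placement, the log2 fold change was 0.27 ± 0.08 (SE; edgeR adjusted p = 0.025). Without shRB 1, shRB 3, shCON 2 or shCON 3 the sum no longer passed (0.24, 0.24, 0.24 and 0.26, edgeR adjusted p of 0.091, 0.074, 0.099 and 0.11). The count of HSPE1 per count of HSPD1 was 0.348, 0.361 and 0.290 in shRB 1 to 3 and 0.297, 0.329 and 0.322 in shCON 1 to 3. These ratios overlapped (exact permutation test, two-sided, p = 0.6; the smallest p for 3 against 3 is 0.1).

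The other 2 mitochondrial members were higher in mean without passing. HSPA9 (ENST00000297185, chromosome 5), mortalin, read 405, 348 and 399 CPM in shRB 1 to 3 and 366, 341 and 325 CPM in shCON 1 to 3. Its shRB 2 value lay below shCON 1, and the log2 fold change was 0.16 ± 0.08 (SE; approximate 95% interval −0.01 to 0.33; edgeR adjusted p = 0.17). Without shRB 2 it was 0.23 and passed (adjusted p = 0.0033), as it did with GC correction (0.19, adjusted p = 0.0094).

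TRAP1 (ENST00000246957, chromosome 16) read 276, 301 and 261 CPM in shRB 1 to 3 and 246, 268 and 247 CPM in shCON 1 to 3. In shRB 3 it was below shCON 2, and shRB 2 was the highest library. The log2 fold change of TRAP1 was 0.14 ± 0.08 (SE; 95% interval −0.03 to 0.30; edgeR adjusted p = 0.21), and 0.09 without shRB 2. The count of HSPA9 per count of HSPD1 was 0.379 to 0.402 in shRB and 0.408 to 0.4395 in shCON, without overlap (exact permutation test, two-sided, p = 0.1, the smallest possible, and 0.25 adjusted over 5 ratios).

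None of the 5 cytosolic members passed. HSPA8 (ENST00000534624, chromosome 11), the constitutive HSP70, held the most reads of the 10 genes, with 3573, 3686 and 3648 CPM in shRB 1 to 3 and 3577, 3570.4 and 3602 CPM in shCON 1 to 3. Its shRB 1 value was between those of shCON 2 and shCON 1. On the log2 scale the change was 0.02 ± 0.07 (SE), with a 95% interval of −0.13 to 0.17 (edgeR adjusted p = 0.86).

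HSP90AB1 (ENST00000353801, chromosome 6), the constitutive HSP90, had 1931, 1985 and 1956 CPM in shRB 1 to 3 and 1944, 1889.7 and 1849 CPM in shCON 1 to 3. It differed by 0.05 ± 0.07 on the log2 scale (SE), with a 95% interval of −0.10 to 0.20 (edgeR adjusted p = 0.66). The intervals of HSPA8 and HSP90AB1 leave room for changes of that size in either direction.

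HSP90AA1 (ENST00000216281, chromosome 14), the more inducible HSP90, varied most between shRB libraries relative to its mean, with 1465, 1013 and 1482 CPM in shRB 1 to 3 and 1301, 1110.03 and 1196 CPM in shCON 1 to 3. Libraries shRB 1 and shRB 3 were the 2 highest of the 6, and shRB 2 was the lowest. HSP90AA1 had a log2 fold change of 0.13 ± 0.12 (SE; 95% interval −0.13 to 0.40; edgeR adjusted p = 0.46). Without shRB 2 it was 0.30 and passed (adjusted p = 0.00016), and with GC correction it was 0.16 and did not pass (adjusted p = 0.11). Other libraries moved it down: it was 0.05 without shRB 1, 0.05 without shRB 3 and 0.08 without shCON 2, and passed in none of these. The count of HSP90AA1 per count of HSP90AB1 was 0.759, 0.510 and 0.758 in shRB 1 to 3 and 0.669, 0.587 and 0.647 in shCON 1 to 3, and the groups overlapped. With the pair summed, the log2 fold change was 0.08 (edgeR adjusted p = 0.50).

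HSPH1 (ENST00000320027), an HSP110 that recharges HSP70, lies on chromosome 13 as RB1 does. It read 192, 146 and 198 CPM in shRB 1 to 3 and 185, 152 and 168 CPM in shCON 1 to 3, again with shRB 2 lowest. HSPH1 had a log2 fold change of 0.08 ± 0.11 (SE; 95% interval −0.15 to 0.32; edgeR adjusted p = 0.61). It passed without shRB 2 (0.21, adjusted p = 0.014) and with GC correction (0.15, adjusted p = 0.034), and was close to 0 without shRB 3 (0.006), shCON 2 (0.02) or shRB 1 (0.03).

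DNAJB1 (ENST00000254322, chromosome 19), the HSP40 partner of HSP70, read 199, 203 and 198 CPM in shRB 1 to 3 and 184, 192 and 179.7 CPM in shCON 1 to 3. The groups did not overlap, as for 21.0% of tested rows, yet the step was small. Its log2 fold change was 0.11 ± 0.07 (SE; 95% interval −0.04 to 0.26; edgeR adjusted p = 0.26). The count of DNAJB1 per count of HSPA8 was 0.0543 to 0.0556 in shRB and 0.0499 to 0.0537 in shCON, without overlap (exact permutation test, two-sided, p = 0.1, the smallest possible, and 0.25 adjusted over 5 ratios).

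HSF1 (ENST00000528838, chromosome 8), the regulator, read 147, 181 and 149 CPM in shRB 1 to 3 and 137, 153 and 149 CPM in shCON 1 to 3. Its shRB 2 value was the highest of the 6, and the other 5 overlapped. HSF1 had a log2 fold change of 0.12 ± 0.09 (SE; 95% interval −0.07 to 0.32; edgeR adjusted p = 0.34), and 0.03 without shRB 2. HSF1 protein is held inactive by chaperones and activated after translation, so its mRNA does not report its activity. The exons of the HSF1 row overlap those of DGAT1 by 139 bases on the opposite strand, which leaves its count uncertain.

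**Figure D3:**
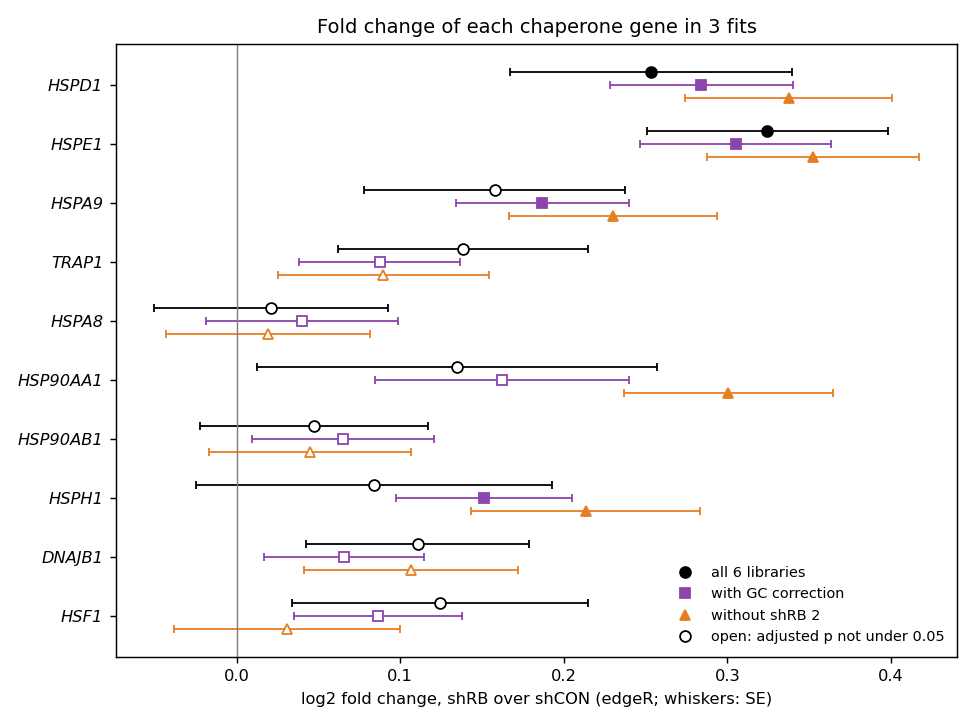
Log2 fold change of shRB over shCON (horizontal axis, edgeR, whiskers SE) for each chaperone gene with all 6 libraries (circles), with GC correction (squares) and without shRB 2 (triangles); filled symbols have an adjusted p under 0.05. HSPE1 and HSPD1 are filled in all 3 fits, HSPA9 and HSPH1 in the squares and triangles, and HSP90AA1 in the triangle only.

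Counting HSPE1, HSPD1, HSPA9, HSPH1 and HSP90AA1, 5 of the 10 genes passed as higher without shRB 2. With GC correction 4 passed, and with any other single library left out HSPE1 alone did. Calls became more common over all rows in the same fits: 17.5% of rows passed as higher without shRB 2 and 19.8% with GC correction, beside 12.8% with all 6 libraries.

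By level per length (CPM per kb of the row's transcript), HSPA8 led with 1476 ± 23.4 in shRB and 1455 ± 6.76 in shCON, ahead of HSP90AB1 with 758 ± 10.5 in shRB and 734 ± 18.5 in shCON (SD, n = 3). HSPD1 (398 ± 38.9 in shRB and 334 ± 23.6 in shCON) and HSP90AA1 (391 ± 78.7 in shRB and 356 ± 28.2 in shCON) came next and overlapped each other in both groups. HSPE1 followed with 340.2 ± 25.6 in shRB and 272 ± 4.01 in shCON, and overlapped HSP90AA1 in shRB but not in shCON. In shCON every HSPD1 value lay above every HSPE1 value, at 316 to 360 CPM per kb for HSPD1 and 269 to 276 CPM per kb for HSPE1. That order depends on the transcript lengths used, and the HSPE1 row's transcript starts before the RefSeq start, as given above. HSPA9 (136 ± 11.1 in shRB and 122 ± 7.30 in shCON) and TRAP1 (122 ± 8.92 in shRB and 111 ± 5.41 in shCON) overlapped in both groups. DNAJB1 (88.4 ± 1.26 in shRB and 81.8 ± 2.64 in shCON), HSF1 (74.3 ± 9.05 in shRB and 68.2 ± 3.89 in shCON) and HSPH1 (34.4 ± 5.45 in shRB and 32.5 ± 3.11 in shCON) were lowest and stood apart from each other in both groups.

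Chaperone genes have many processed pseudogenes, so part of their reads may be shared. Of all stretches of 50 bases in the row's transcript, 52.9% of HSPE1, 25.0% of HSPD1, 24.6% of TRAP1, 19.5% of HSP90AB1, 18.2% of HSP90AA1 and 15.4% of HSPA8 also occur in a GENCODE transcript of another gene on either strand. The values were 6.66% for HSPA9, 4.30% for HSF1, 2.57% for DNAJB1 and 0 for HSPH1. For HSPE1 these stretches lay in HSPD1 transcripts (25.7% of all its stretches), in the read-through HSPE1-MOB4 (16.0%) and in pseudogenes such as HSPE1P2 (9.10%). For HSPD1 they lay mainly in HSPD1P1, and for TRAP1 in DNASE1. HSP90AA1 and HSP90AB1 shared no such stretch with each other. The treatment of reads with several matches is not given in the sources used. Levels and fold changes of genes with a high share, HSPE1 among them, are uncertain.

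Genes beside the chaperones on the chromosome were read as a check on local change. The 10 tested neighbours of HSPD1, 5 on each side, had a median log2 fold change of 0.03, and those of HSPE1 0.01, while chromosome 2 had −0.07 over 757 tested genes. HSPD1 and HSPE1 are among each other's neighbours, so their medians are not separate checks. Neighbour medians were −0.03 for HSPA9, −0.05 for TRAP1 and −0.03 for HSPH1. They were −0.27 beside HSPA8 and 0.16 beside HSP90AB1, whose own values were 0.02 and 0.05, and 0.07 beside HSP90AA1, −0.03 beside DNAJB1 and −0.02 beside HSF1.

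The partners of these chaperones were read from 8 lists of other genes, none of them a member of the group above. Their counts stand beside 12.8% of all tested rows higher and 12.5% lower. In the list of mitochondrial partners and proteases, 1 of 14 tested genes passed as higher, 1 as lower and 12 as neither, with a median log2 fold change of 0.07. The riser was DNAJA3, the matrix J protein that works with HSPA9, at 137, 136 and 138 CPM in shRB 1 to 3 and 114, 111 and 108 CPM in shCON 1 to 3 (log2 fold change 0.30 ± 0.07, SE; edgeR adjusted p = 0.0067). It passed with any 1 library left out. SPG7, a subunit of the inner-membrane AAA protease, fell by 0.23 on the log2 scale (edgeR adjusted p = 0.0399), but passed only without shRB 2 when 1 library was left out. YME1L1, the protease facing the intermembrane space, was 105 ± 12.9 CPM in shRB and 124 ± 11.3 CPM in shCON (SD, n = 3; edgeR adjusted p = 0.0996), and passed with GC correction and with no filter.

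HSP90 co-chaperones rose in 4 of 15 tested genes and fell in 0 (median 0.05), beside 12.8% of all rows higher. FKBP5, an immunophilin of steroid receptor complexes that is also a textbook androgen-induced gene, stood at 61.0 ± 6.05 CPM in shRB and 41.6 ± 0.99 CPM in shCON. AHSA1, which stimulates the HSP90 ATPase, stood at 245 ± 8.93 CPM in shRB and 208 ± 7.98 CPM in shCON, and CACYBP at 175 ± 15.997 CPM in shRB and 147 ± 7.80 CPM in shCON (SD, n = 3; edgeR adjusted p of 0.0009, 0.025 and 0.039). STIP1, the adaptor between HSP70 and HSP90, was the remaining riser and is named after its values were seen (0.20, adjusted p = 0.043). The rising count was 1 without shRB 1, shCON 1 or shCON 3 and 2 without shRB 3 or shCON 2, and FKBP5 passed in all of these.

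The cytosolic HSP70 system had 2 of 12 tested genes higher and 1 lower (median −0.12), beside 12.8% and 12.5% of all rows. HSPA14, a ribosome-linked HSP70, rose by 0.51 and ST13, which binds HSP70 and HSP90, by 0.23 on the log2 scale, while HSPBP1, a nucleotide exchange factor, fell by 0.27 (edgeR adjusted p of 0.020, 0.024 and 0.043). The stress-inducible HSPA1A and HSPA1B, near-identical copies whose reads cannot be assigned with certainty, were 0.005 and −0.04. Neither passed, and both are named after their values were seen. Without shRB 1, shRB 3 or shCON 2 no gene of this list passed in either direction, without shCON 1 or shCON 3 1 rose and 0 fell, and without shRB 2 2 fell. HSPA6, strictly heat-inducible, had at most 10 counts in any library.

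Of 15 tested J proteins, 0 rose and 2 fell (median −0.02), beside 12.8% of all rows higher and 12.5% lower, so the lower share is near the background. DNAJC6, the auxilin that uncoats clathrin, was 3.34 ± 0.96 CPM in shRB and 7.83 ± 1.05 CPM in shCON, and DNAJB2, a neuronal co-chaperone, 96.7 ± 10.9 CPM in shRB and 133 ± 6.39 CPM in shCON (SD, n = 3; edgeR adjusted p of 0.00077 and 0.0022). DNAJC5, cysteine string protein, was 292 ± 27.5 CPM in shRB and 342 ± 23.3 CPM in shCON (adjusted p = 0.061). It passed as lower without shRB 2, with GC correction, with upper quartile or unscaled totals and with no filter.

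In the cytosolic chaperonin TRiC and its co-factor prefoldin, 2 of 14 tested subunits rose and 0 fell (median 0.02), beside 12.8% and 12.5% of all rows. CCT3 was 1073 ± 39.4 CPM in shRB and 855 ± 10.6 CPM in shCON, and PFDN2 90.3 ± 8.92 CPM in shRB and 66.0 ± 6.11 CPM in shCON (SD, n = 3; edgeR adjusted p of 0.0037 and 0.0040). CCT5, at 0.18 on the log2 scale, did not pass (adjusted p = 0.069), but did so without shRB 2 and with GC correction. Without shRB 2, 5 subunits rose and 1 fell.

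Small heat shock proteins gave the widest spread, with 1 of 3 tested genes higher and 2 lower, beside 12.8% and 12.5% of all rows. HSPB1 (HSP27), a widely expressed holdase, read 563, 651 and 559 CPM in shRB 1 to 3 and 353, 357 and 383 CPM in shCON 1 to 3. All shRB libraries were above all shCON libraries (log2 fold change 0.70 ± 0.08, SE; edgeR adjusted p = 3.2e-05). HSPB8, which works with BAG3 in selective autophagy, read 0.911, 0.955 and 1.06 CPM in shRB 1 to 3 and 6.04, 8.04 and 6.21 CPM in shCON 1 to 3 (log2 fold change −2.77 ± 0.23, SE; adjusted p = 2.4e-06). CRYAB, alphaB-crystallin, read 0.364, 0.106 and 0.483 CPM in shRB 1 to 3 and 2.21, 1.91 and 1.14 CPM in shCON 1 to 3 (adjusted p = 0.00082). Levels of HSPB8 and CRYAB were low, and genes at such levels pass the filter through shCON, where they are higher. Their calls therefore had to be lower ones, and the count of lower genes and the wide spread rest on them.

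Endoplasmic reticulum chaperones had 1 of 14 tested genes higher and 3 lower (median −0.005), beside 12.8% of all rows higher and 12.5% lower. Calnexin (CANX), which holds glycoproteins for folding, read 476, 422 and 489 CPM in shRB 1 to 3 and 911, 881 and 962 CPM in shCON 1 to 3, a log2 fold change of −0.99 ± 0.08 (SE; edgeR adjusted p = 1.2e-06). SERPINH1 (HSP47), the collagen chaperone, was 0.841 ± 0.088 CPM in shRB and 4.09 ± 0.297 CPM in shCON, and the disulphide isomerase PDIA4 495 ± 18.9 CPM in shRB and 413 ± 10.2 CPM in shCON (SD, n = 3; adjusted p of 2.2e-05 and 0.013). PDIA3, named after its values were seen, fell by 0.20 on the log2 scale (adjusted p = 0.041), and its exons overlap those of ELL3 by 627 bases on the opposite strand. SERPINH1 was under 1 CPM in every shRB library and passed the filter on low counts through shCON, where it is higher, so its call had to be a lower one. PDIA4 lost its call without shCON 1 or shCON 3, and PDIA3 kept its call only without shRB 2 when 1 library was left out.

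Among heat shock factors and modulators, 0 of 3 tested genes rose and 1 fell, beside 12.8% of all rows higher and 12.5% lower. HSF2, a second heat shock factor, was 34.9 ± 3.14 CPM in shRB and 30.9 ± 4.27 CPM in shCON (SD, n = 3; edgeR adjusted p = 0.29), and HSBP1L1 was 8.55 ± 0.97 CPM in shRB and 10.98 ± 2.30 CPM in shCON (adjusted p = 0.13). HSF2BP, which binds HSF2 and is known for its part in meiosis, fell to 1.28 ± 0.37 CPM in shRB, against 2.74 ± 0.47 CPM in shCON (adjusted p = 0.016). Levels of HSF2BP were low, at 1.37, 1.59 and 0.87 CPM in shRB 1 to 3. It met the filter on low counts with the help of shCON, where it is higher. The call of HSF2BP was lost without shRB 3, shCON 2 or shCON 3, and with DESeq2. HSF2 and HSBP1L1 passed with GC correction, and HSBP1L1 also without shCON 2.

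**Figure D4:**
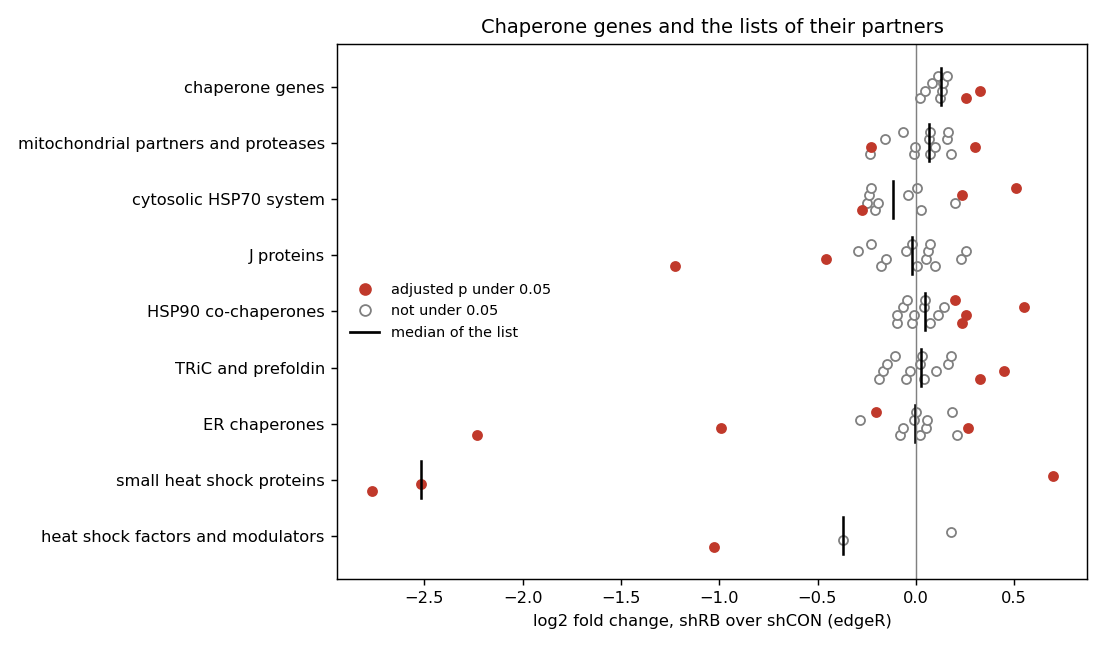
Log2 fold change of shRB over shCON (horizontal axis, edgeR) for the 10 chaperone genes and the tested genes of 8 partner lists, 1 point per gene, filled where the adjusted p is under 0.05, with a line at each list's median. The 10 chaperone genes lie between 0.02 and 0.32, while HSPB8, CRYAB and SERPINH1 lie below −2.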

How the data were processed

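The deposited table holds raw counts of reads, not normalized, for each transcript ID in each library (whole numbers, from the values). Per the submitters' processing notes, STAR, HOMER, edgeR and hg19 were used; the annotation and counting options are not given in the sources. Of 22279 IDs, 22182 matched GENCODE release 29, which describes another build and gave names, chromosomes, gene order, exon overlap, length and GC content. The only coordinates printed are those of RefSeq's own GRCh38.p14 windows.

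After filterByExpr (at least 10 counts per library and 15 in total as its settings) and TMM scaling, rows were tested with edgeR 4.0.16 (R 4.3.3), glmQLFit and glmQLFTest, group as the only term, with Benjamini-Hochberg adjustment over 11712 rows and a threshold of 0.05. The SE is the log2 fold change divided by the square root of F, and 95% intervals use the test's own degrees of freedom. The procedure was tested on simulated counts. These were drawn row by row, without deviations that follow GC content within a library, so that test does not cover such deviations. GC correction used a lowess on GC content, per library, as an offset. The smoothed value was a row's log2 CPM (prior count 2) minus its mean over all libraries. Because that mean spans both groups, the offset can also remove a difference between them that follows GC content. The test took the offset as known, although it came from the same counts. Libraries of one group had a chi-square per degree of freedom of 2.17 to 10.9 in pairs, so none was treated as a duplicate.

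The 10 genes and the lists were chosen with earlier results of these data known. Named genes were the 10, RB1, the 3 tested genes with the smallest p in each list and all tested genes of the heat shock factor list. Alternatives were DESeq2 1.42.0, limma-voom (limma 3.58.1), RLE, upper quartile and unscaled totals, 2 filters, a block for the replicate number, leaving out each library, an adjusted p under 0.01, the 20 most abundant rows left out of normalization, and summed rows. Of the genes in the partner lists, 17 had no row and were not analysed here. The fibroblast and muscle markers LUM and ACTA2 had no row either.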

Additional observations from a re-analysis of the deposited data

How the results depend on the processing

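Counts of rows higher and lower in shRB were 1499 and 1459, and ranged from 863 to 2074 and from 912 to 1956 with 1 library left out (863 higher without shCON 1, 2074 without shRB 2, and 969 higher and 964 lower without shCON 3). They were 787 and 793 at an adjusted p under 0.01 and 2308 and 2255 with GC correction, which was chosen after seeing the data. The number of chaperone genes higher was 2, from 1 to 5 with 1 library left out, 1 under upper quartile normalization, unscaled library totals or an adjusted p under 0.01, and 4 with GC correction; 0 were lower in every fit listed here. The sum of HSPD1 and HSPE1 ranged from 0.24 to 0.34 on the log2 scale with 1 library left out, and at 0.27 did not pass an adjusted p under 0.01. HSPA8 turned to −0.0037 under upper quartile normalization, where the median of all rows was −0.03. HSPD1 did not pass under upper quartile normalization (0.23) or unscaled totals (0.24).

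Same-numbered libraries had correlated deviations for numbers 1 and 2 (0.24 and 0.35) but not 3 (−0.0003), and 3 of 6 libraries correlated best with their own number, so the numbers were not taken as pairs. With the replicate number as a block, 2203 rows were higher and 2294 lower, and 3 chaperone genes were higher, with HSPA9 added (0.16, edgeR adjusted p = 0.047). DNAJC5, YME1L1 and CCT5 among the named partner genes also passed with the block. Outside the fits that left out a library or used an adjusted p under 0.01, the calls of SPG7, HSPBP1 and HSF2BP were lost with DESeq2, those of SPG7, STIP1 and PDIA3 with no filter, that of CACYBP with upper quartile or unscaled totals and that of STIP1 with upper quartile. Each library held at least 910 counts of each chaperone gene.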
